A study of Mus musculus with 15 samples.

Results

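The 10 genes described here sit at the receiving end of Wnt signaling: the Frizzled receptors Fzd2, Fzd4, Fzd5, and Fzd6, the secreted inhibitors Sfrp1, Sfrp4, and Dkk1, and beta-catenin (Ctnnb1) with the scaffold proteins Axin1 and Axin2. They were chosen by symbol, and every probe on the array whose gene name was one of the 10 symbols was taken, whatever its values. Of the 27962 gene names on the array, these 10 had 16 probes, and 14 of those probes were bright enough to be tested. Fzd2, Fzd5, Sfrp1, and Dkk1 each had a pair of probes, Ctnnb1 had 3, and the other 5 genes had 1 probe each.

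All samples were uteri of ovariectomized WT female mice that were adults of at least 10 weeks. After surgery the animals rested for 10 to 14 days and were then given 1 intraperitoneal injection of 100 μl saline vehicle, which per the study's methods held a little ethanol, alone or with 250 ng of estradiol (E2) or estriol (E3). E3 differs from E2 by an additional hydroxyl group on the D ring of the steroid. The 5 groups, with 3 one-color arrays each, were saline at 24 hr, E2 at 2 hr, E3 at 2 hr, E2 at 24 hr, and E3 at 24 hr. There was no saline group at 2 hr, so the saline group at 24 hr served as the control at both times. In every comparison of a 2 hr group with saline, the compound therefore cannot be told apart from the time since injection. The strain label was C57bl6/Jx129 for E2 at 2 hr and C57bl6/J for the other 4 groups, and the E2 arrays at 2 hr were read on another scanner and another day than all others. In every comparison that uses E2 at 2 hr, compound or time therefore cannot be told apart from strain and scanner. Only 1 slide held arrays of more than 1 group, with the 3 E3 arrays at 2 hr and saline replicate 3. In all other comparisons, those of both 24 hr groups with saline included, compound or time cannot be told apart from slide. The labels describe RNA from each uterus, whereas the study's methods describe pooled tissue, so the p-values measure the spread between these samples, which may be pools.

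Wnt proteins bind Frizzled receptors together with the coreceptors Lrp5 and Lrp6, and this keeps beta-catenin from being degraded, so that it can enter the nucleus and act with TCF/LEF factors. Axin1 is the scaffold of the complex that marks beta-catenin for degradation, and Axin2 is a related scaffold whose own gene is a beta-catenin target, which makes it a negative feedback gene. SFRP proteins bind Wnts outside the cell, Dkk1 binds the coreceptors, and in the uterus the pathway is known for its part in gland formation, epithelial growth, and preparation for implantation.

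The probes below carry the main results, and they are shown so that the transcript stretch behind each value can be identified. Coordinates are those of the array annotation (mouse build mm7), all on the plus strand, and the letters run 5′ to 3′ in lower case. The Fzd2 probe is given whole (60 bases), and the others are given by their first 30 bases.
Fzd2 probe 1, chr11:102715340-102715399: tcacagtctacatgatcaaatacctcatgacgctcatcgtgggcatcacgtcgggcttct
Sfrp1 probe 1, chr8:22232957-22233016: cggaatcagtatagcgtggaaggagacagt
Axin2, chr11:109059707-109059766: ttctactttagactgtaaattatgcattat
Ctnnb1 probe 3, chr9:120654491-120654550: aagggacatggagtgtaatgtactgttgtg

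Values are log2 signals with the array's 75th percentile set to 0, so a value compares arrays for 1 probe and never 1 probe with another. A probe was called when limma gave an unadjusted p below 0.001 and the groups differed by at least 2-fold, and adjusted p-values are limma's with Benjamini-Hochberg adjustment over all tested probes. Replicates are named in the order of replicate 1, 2, and 3. Because whole uteri were measured, fewer cells of a type and less RNA per cell cannot be told apart.

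Of the 14 tested probes, 3 were called for E2 at 2 hr against saline (1 higher, 2 lower), where 21.2% of all tested probes were called. For E3 at 2 hr the count was 2 (1 higher, 1 lower) against 13.8% of all probes. For E2 at 24 hr it was 4 (1 higher, 3 lower) against 18.1%, and for E3 at 24 hr it was 1 (higher) against 3.82%. The median log2 difference of the 14 probes was 0, -0.40, -0.37, and -0.18 in these comparisons, in that order, and that of all tested probes was -0.074, -0.106, -0.065, and -0.011. The 1 probe called higher in each of the 4 comparisons was Dkk1 probe 1, whose signal was near background and whose calls are not support for a change. All 4 comparisons share the same saline arrays.

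Fzd2, a receptor of the Frizzled family, showed the clearest difference from saline at 2 hr among the Frizzled members described here. Fzd2 probe 1 read 2.53, 2.35, and 2.51 on the saline arrays. It read 1.19, 1.03, and 1.14 after 2 hr of E2 and 1.33, 1.07, and 1.06 after 2 hr of E3. The 6 treated values all lay below the 3 saline values and mixed with each other.

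By 24 hr the values lay around those of saline, some below and 1 above, at 2.11, 2.36, and 2.27 with E2 and at 2.48, 2.62, and 2.20 with E3. At 2 hr Fzd2 probe 1 was lower than saline at 24 hr by 1.34 ± 0.12 on the log2 scale (SE, 2.54-fold, adjusted p = 1.33e-06) with E2. With E3 it was lower by 1.31 ± 0.12 (2.47-fold, adjusted p = 3.08e-06). Compound and time since injection cannot be told apart in these 2 hr differences. Against saline at 24 hr the differences were -0.21 (95% interval -0.48 to 0.05) with E2 and -0.03 (-0.29 to 0.23) with E3, and neither was called. One slide held the 3 E3 arrays at 2 hr together with saline replicate 3, and within that slide the difference of this probe was -1.35, a value with 1 control array.

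The second Fzd2 probe lies 1372 bases downstream of the first and differed from saline the same way at 2 hr. It is annotated to a cDNA clone and the first to a RefSeq transcript, and whether both read the same transcript was not tested. Its values were as follows. Fzd2 probe 2 read -0.85, -0.85, and -0.71 with saline, -1.91, -2.37, and -2.12 with E3 at 2 hr, and -1.70, -2.01, and -4.26 with E2 at 2 hr. All 6 treated values lay below saline, and the value of E2 replicate 3 lay 4.75-fold below the nearest of its group. With all arrays Fzd2 probe 2 differed from saline by -1.85 ± 0.483 with E2 (adjusted p = 0.00512) and -1.33 ± 0.483 with E3 (adjusted p = 0.0372), and it was called for neither. With that 1 value set missing, an alternative chosen after seeing the data, the differences were -1.05 ± 0.163 (adjusted p = 0.000173) and -1.33 ± 0.146 (adjusted p = 2.01e-05), both called. At 24 hr it read -1.54, -1.60, and -1.40 with E2 and -1.08, -1.26, and -1.54 with E3. These 6 values still lay below the saline values, unlike those of probe 1, with differences of -0.71 (95% interval -1.76 to 0.34) and -0.49 (-1.54 to 0.56) that were not called. With the low value set missing these were -0.71 (-1.03 to -0.39, adjusted p = 0.00141) and -0.49 (-0.81 to -0.17, adjusted p = 0.0237), under 2-fold and still not called.

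The other Frizzled members described here (Fzd4, Fzd5, and Fzd6) differed from saline by less than 2-fold. Fzd4, which also serves as the receptor of Norrin in blood vessels, read -0.15, -0.37, and -0.02 with saline and -0.85, -0.62, and -0.64 with E2 at 24 hr. The E2 values were all lower, with a mean difference of -0.52 ± 0.163 (adjusted p = 0.0144). With E3 at 24 hr Fzd4 read -0.35, -0.33, and -0.62, which overlapped saline, and the difference was -0.25 (95% interval -0.61 to 0.10). At 2 hr the values overlapped saline with either compound, with differences of 0.29 and 0.13.

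Fzd5, another receptor of the family, was dim but well above background on all 15 arrays with probe 1. Fzd5 probe 1 read -5.21, -5.36, and -5.25 with saline, -4.89, -4.54, and -4.73 with E2 at 2 hr, and -5.00, -4.80, and -4.64 with E2 at 24 hr. The E2 values were above every saline value at both times, by 0.56 ± 0.108 (adjusted p = 0.00071) at 2 hr and 0.46 ± 0.108 (adjusted p = 0.00276) at 24 hr. With E3 it read -5.14, -5.09, and -5.10 at 2 hr and -5.22, -5.13, and -5.33 at 24 hr. The E3 values at 2 hr also lay above every saline value, and those at 24 hr overlapped saline. The E3 differences from saline were 0.16 (95% interval -0.07 to 0.40) at 2 hr and 0.05 (-0.19 to 0.29) at 24 hr. Fzd5 probe 2 was not well above background on any array and was not tested. Its coordinates run along the plus strand, while those of probe 1 run along the minus strand.

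Fzd6, a receptor best known from planar polarity, read 0.90, 0.81, and 0.87 with saline. It stayed between 0.54 and 0.78 on the E2 arrays of both times and between 0.11 and 1.07 on the E3 arrays. The difference with the smallest p against saline was that of E3 at 2 hr, -0.39 ± 0.142 (adjusted p = 0.0377), and no difference of Fzd6 was called.

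**Figure D1:**
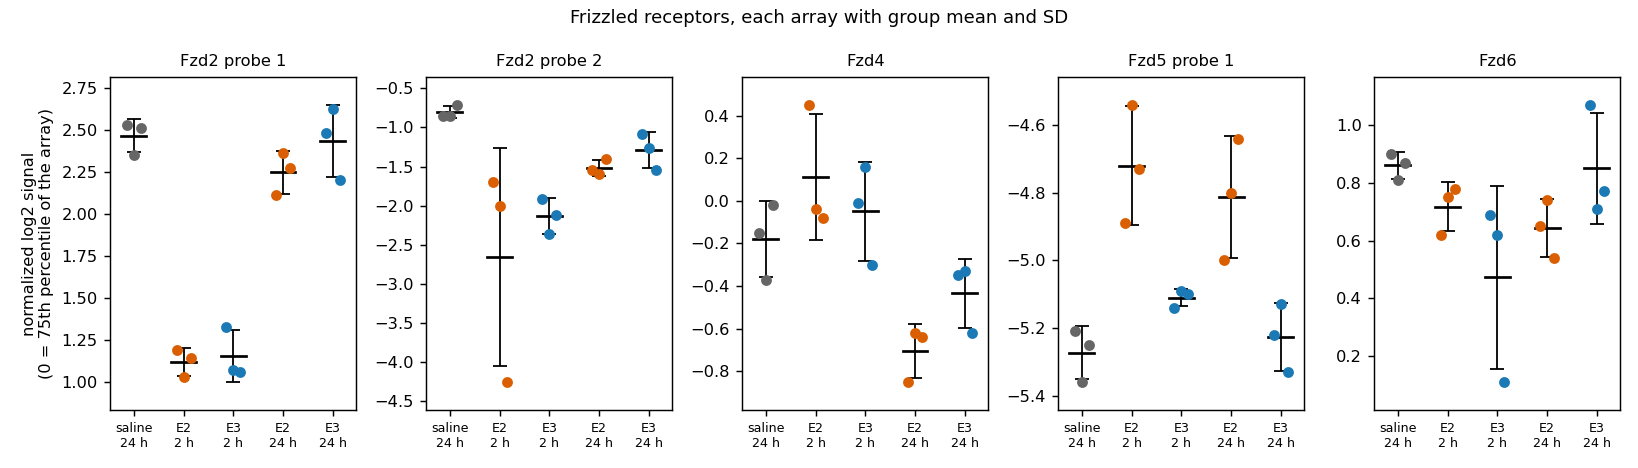
Normalized log2 signal (0 is the 75th percentile of the array) of the 5 tested Frizzled probes on each of the 15 arrays, with group means and SD (n = 3) and a vertical scale of its own for each probe. Fzd2 probe 1 sits between 1.03 and 1.33 on the 6 arrays at 2 hr and between 2.11 and 2.62 on the other 9.

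Among the secreted inhibitors, Sfrp1, a decoy that binds Wnts, was lower after either compound and was called for E2. Sfrp1 probe 1 read -0.76, -0.65, and -0.64 with saline. It read -1.46, -1.87, and -1.83 with E2 at 2 hr and -2.11, -1.92, and -2.23 with E2 at 24 hr. With E3 it read -1.27, -1.45, and -1.18 at 2 hr and -1.29, -0.96, and -1.89 at 24 hr. All 12 treated values lay below the saline values, and the lowest were those of E2 at 24 hr.

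With E2 Sfrp1 probe 1 fell by 1.04 ± 0.196 (2.05-fold, adjusted p = 0.000575) at 2 hr, and at 24 hr it fell by 1.40 ± 0.196 (2.65-fold, adjusted p = 6.29e-05). The call at 2 hr is close to the 2-fold threshold and was lost in 5 of 28 other settings, at -0.98 with quantile normalization, -0.95 without scaling, -0.99 with another background correction (normexp), and -0.96 and -0.98 without E2 replicate 2 or 3. The E3 differences of -0.62 ± 0.196 at 2 hr (adjusted p = 0.0201) and -0.70 ± 0.196 at 24 hr (adjusted p = 0.0167) were under 2-fold and were not called. Sfrp1 probe 2, 628 bases downstream, fell by 1.26 ± 0.211 (2.4-fold, adjusted p = 0.000249) with E2 at 24 hr, from -3.93, -3.74, and -3.81 to -4.87, -5.14, and -5.28. Its other differences against saline ran from -0.79 to -0.46 and were not called, and with normexp the difference for E2 at 24 hr was -0.89 (adjusted p = 0.119).

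Sfrp4, a related decoy, was bright on all arrays. It read 1.87, 2.38, and 1.98 with saline, 1.98, 1.39, and 1.21 with E2 at 2 hr, and 1.51, 1.31, and 1.92 with E3 at 2 hr. At 24 hr it read 1.75, 1.26, and 1.62 with E2 and 2.17, 2.23, and 3.12 with E3. The E3 values at 24 hr were all above the E2 values of that time, and they overlapped saline. No difference of Sfrp4 against saline was called, and the estimates were -0.55, -0.49, -0.53, and 0.43 in the order E2 and E3 at 2 hr, E2 and E3 at 24 hr.

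Dkk1, which blocks the coreceptors, was near background throughout. Dkk1 probe 1 read -9.41, -9.04, and -8.42 with saline and was not well above background on any of these 3 arrays. It was well above background on 3 of 3 arrays with E2 at 2 hr, where it read -7.41, -7.45, and -7.65, on 2 of 3 with E2 at 24 hr (-7.69, -8.18, and -7.97), and on 1 of 3 each with E3 at 2 hr (-7.64, -7.95, and -7.86) and at 24 hr (-7.48, -7.90, and -7.93). The 12 treated values lay above the 3 saline values.

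Dkk1 probe 1 passed the filter on dim probes only through the E2 groups, where it was high, so its being called there is not support for a change. Its measured differences from saline were called with E2 at 2 hr (adjusted p = 0.000107) and 24 hr (adjusted p = 0.00174), and with E3 at 2 hr (adjusted p = 0.00101) and 24 hr (adjusted p = 0.0019), and they are the only member differences called higher than saline. The size of the Dkk1 difference is not taken as a result, since no saline array measured Dkk1. The log2 differences that follow are given only to show their dependence on the background correction. With normexp and an offset of 50 in place of the scanner's background subtraction, none of the 4 Dkk1 differences was called. They went from 1.45, 1.14, and 1.01 on the log2 scale to 0.27, 0.18, and 0.19 for E2 and E3 at 2 hr and E2 at 24 hr (adjusted p = 0.865, 0.98, and 0.921), and from 1.19 to 1.38 for E3 at 24 hr (adjusted p = 0.201). With slide as a fixed block, which leaves 1 saline array on the slide of E3 at 2 hr, Dkk1 was not called for E3 at 2 hr (adjusted p = 0.0976). Dkk1 probe 2 was not well above background on any array and was not tested.

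**Figure D2:**
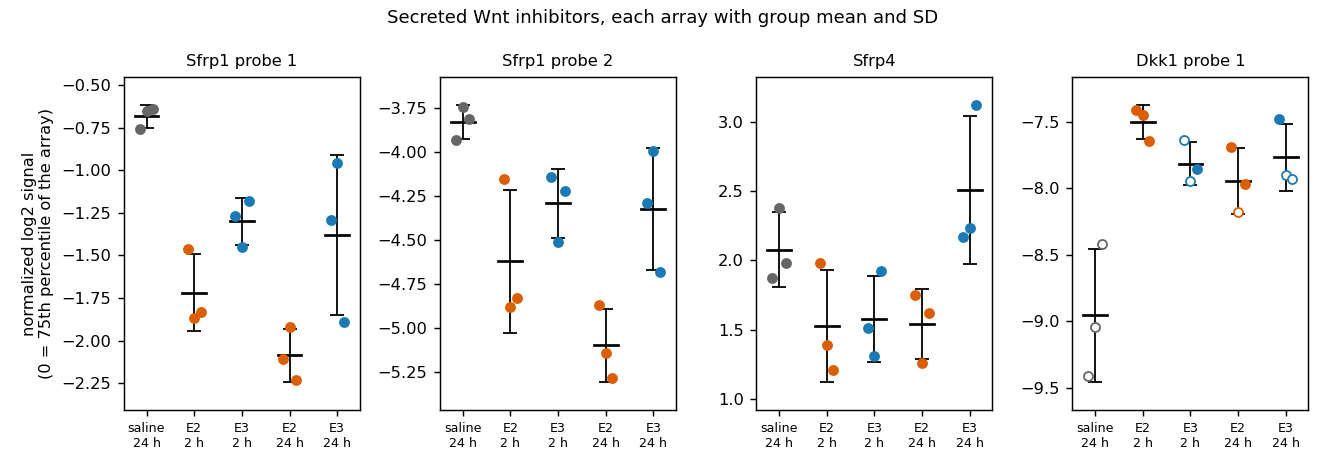
Normalized log2 signal of the 4 tested probes of secreted Wnt inhibitors on each array, with group means and SD (n = 3) and a vertical scale of its own for each probe; open circles were not well above background. The means of both Sfrp1 probes are lowest with E2 at 24 hr, and the 3 open saline circles of Dkk1 lie below all treated arrays.

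Axin2, the feedback gene, had the widest range of group means of the 10 genes (4.37 on the log2 scale), with its low end set by 1 low value of E3 at 24 hr. Without the low values its widest difference was that between E2 at 2 and 24 hr (-3.50). It read 0.99, 0.98, and 0.90 with saline and 3.01, 2.87, and 3.06 with E2 at 2 hr. With E2 at 24 hr it read -0.40, -0.83, and -0.32. The 3 groups did not overlap, with E2 at 2 hr above saline and E2 at 24 hr below it.

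The E3 arrays held 1 low Axin2 value at each time. At 2 hr Axin2 read -2.28, 1.83, and 2.07, and at 24 hr it read 0.30, -4.52, and 0.05. The low values lay 17.2-fold and 23.8-fold below the nearest value of their group, and neither spot carried an outlier flag. Around each, 5 of the 8 neighboring spots were well above background on all 3 arrays of the group, and these differed from the other arrays of the group by -0.29 to 0.22 around the first and by 0.06 to 0.20 around the second. On the first of these arrays 86 tested probes lay more than 8-fold below both other arrays of the group, and on the other array 2 did. The cause of the low values was not tested.

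With all arrays in the fit, the low values gave Axin2 a standard error of 1.22, and no difference of Axin2 was called. The difference from saline was 2.03 with E2 at 2 hr (adjusted p = 0.168), -0.41 with E3 at 2 hr (adjusted p = 0.804), -1.47 with E2 at 24 hr (adjusted p = 0.314), and -2.34 with E3 at 24 hr (adjusted p = 0.159). In the alternative with the low values set missing, which leaves 2 E3 arrays at each time, Axin2 was higher by 2.03 ± 0.138 (4.08-fold, adjusted p = 7.22e-07) with E2 at 2 hr and differed by -1.47 ± 0.138 (2.78-fold, adjusted p = 9.49e-06) with E2 at 24 hr, both called. For E3 the differences in that fit were 1.00 ± 0.155 at 2 hr (adjusted p = 0.000373) and -0.78 ± 0.155 at 24 hr (adjusted p = 0.00388). Neither was called, the first because it fell just short of 2-fold. Both E2 differences were also called, with adjusted p = 8.4e-05 and 5e-04, when the fit held only the E2 group and saline, where no value is left out.

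Axin1, the constitutive scaffold, changed little. It read -0.55, -0.34, and -0.20 with saline, -0.11, -0.02, and -0.12 with E2 at 2 hr, and -0.08, 0.11, and 0.05 with E3 at 2 hr. At 24 hr it read -0.58, -0.53, and -0.48 with E2 and -0.57, -0.57, and -0.75 with E3. The values at 2 hr were all above saline, and the difference was 0.28 ± 0.0961 with E2 (adjusted p = 0.0236) and 0.39 ± 0.0961 with E3 (adjusted p = 0.00495). Within the slide shared by E3 at 2 hr and saline the Axin1 difference was 0.22, again with 1 control array. No Axin1 difference reached 2-fold.

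For Ctnnb1, the probes gave different results. Probe 1 stayed between 3.91 and 4.23 and probe 2, which is spotted 10 times on the array, between 3.36 and 3.67 on all 15 arrays. Their differences from saline ran from -0.12 to 0.11, at most 1.09-fold either way, and none was called. Ctnnb1 probe 3, which was designed on the cDNA clone AK020013 and lies 3443 bases upstream of probe 2, read 2.07, 1.88, and 1.97 with saline and 0.86, 0.94, and 0.79 with E2 at 24 hr. It fell by 1.11 ± 0.109 (2.16-fold, adjusted p = 4.54e-06), and the groups did not overlap.

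With E2 at 2 hr Ctnnb1 probe 3 read 1.85, 1.83, and 1.97, which overlapped saline. With E3 it read 1.58, 1.48, and 1.20 at 2 hr and 1.68, 1.43, and 1.41 at 24 hr, all below saline. The E3 differences were -0.55 ± 0.109 (adjusted p = 0.00109) and -0.47 ± 0.109 (adjusted p = 0.00634) and were not called. Whether the probe reads the Ctnnb1 mRNA, an intron, or another transcript was not tested, so its values are those of this probe and not of beta-catenin mRNA.

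**Figure D3:**
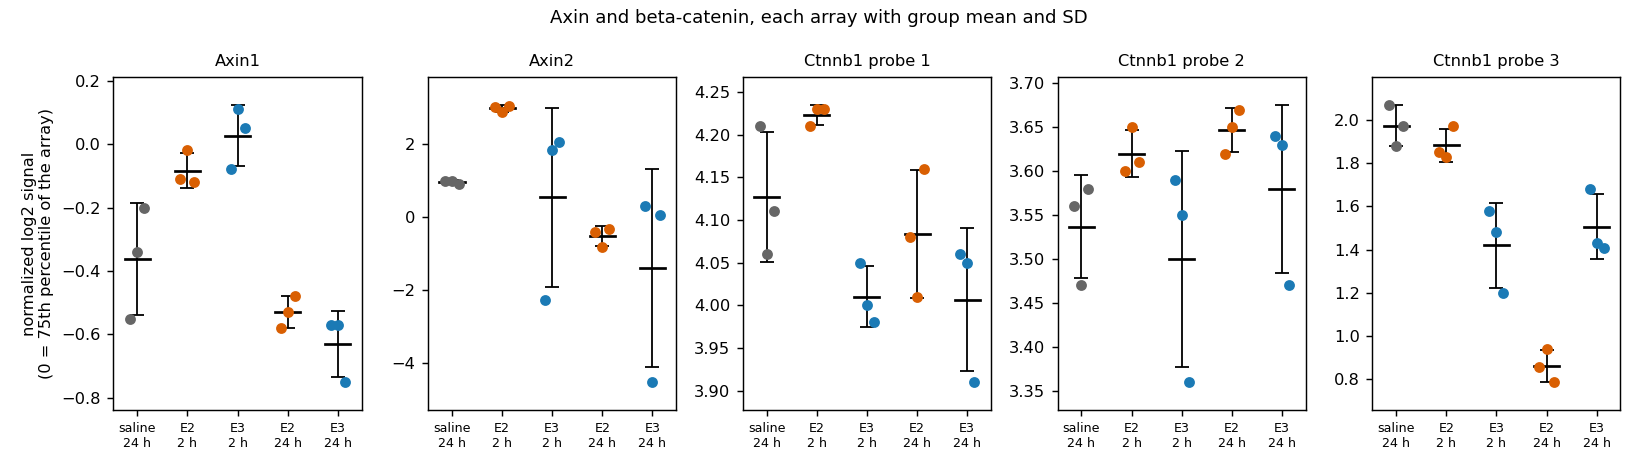
Normalized log2 signal of Axin1, Axin2, and the 3 Ctnnb1 probes on each array, with group means and SD (n = 3); the vertical scales differ, and those of Ctnnb1 probes 1 and 2 span under 0.5. The low Axin2 points are E3 replicate 1 at 2 hr (-2.28) and E3 replicate 2 at 24 hr (-4.52), and Ctnnb1 probe 3 is lowest with E2 at 24 hr.

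The direct comparison of E3 with E2 at the same amount per mouse and the same time was made for the 14 probes at 2 times, 28 differences in all, and none was called with limma. Of all tested probes, 7.51% were called at 2 hr and 4.85% at 24 hr. The absence of a call leaves room for differences of up to the ends of the intervals. The median member difference was -0.14 at 2 hr and 0.20 at 24 hr, against -0.07 and 0.063 for all tested probes.

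At 24 hr, where strain label and scanner were the same and the compounds lay on different slides, 5 of the 14 probes had an unadjusted and an adjusted p below 0.05, and 36.4% of all tested probes had such an adjusted p. E3 left Sfrp1 higher than E2 did, by 0.71 (95% interval 0.28 to 1.13, adjusted p = 0.0142) with probe 1 and 0.77 (0.31 to 1.23, adjusted p = 0.0131) with probe 2. Sfrp4 was higher by 0.97 (0.36 to 1.57, adjusted p = 0.017), and Ctnnb1 probe 3 by 0.64 (0.40 to 0.88, adjusted p = 0.000809). Fzd5 probe 1 differed by -0.41 (-0.65 to -0.18, adjusted p = 0.0108). For Fzd2 probe 1 the E3 minus E2 difference was 0.18 (-0.08 to 0.44), and for Fzd4 it was 0.27 (-0.08 to 0.62). The summed linear signal of 7 epithelial markers ranged from 116 to 125 on the E3 arrays and from 149 to 159 on the E2 arrays of that time, and that of 7 stromal markers from 256 to 282 and from 235 to 253. By single marker, 0 of the 7 stromal and 0 of the 7 epithelial markers were called between the compounds at 24 hr (limma), and 1 and 4 of them had an adjusted p below 0.05. The part of either in these differences was not tested.

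At 2 hr the unadjusted and the adjusted p were below 0.05 for 3 probes, all lower with E3, and the adjusted p was below 0.05 for 43.4% of all tested probes. They were Ctnnb1 probe 3 at -0.46 (-0.70 to -0.22, adjusted p = 0.0049), Fzd5 probe 1 at -0.39 (-0.63 to -0.16, adjusted p = 0.0118), and Ctnnb1 probe 1 at -0.21 (-0.37 to -0.06, adjusted p = 0.03). Fzd2 probe 1 differed by 0.04 (-0.22 to 0.30). Axin2 differed by -2.44 (-5.09 to 0.22) with all arrays, and with the low values set missing by -1.03 (-1.37 to -0.68, adjusted p = 0.000496), which was called. At 24 hr the Axin2 difference changed sign between these fits, from -0.87 (-3.53 to 1.79) to 0.70 (0.35 to 1.04, adjusted p = 0.00585).

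**Figure D4:**
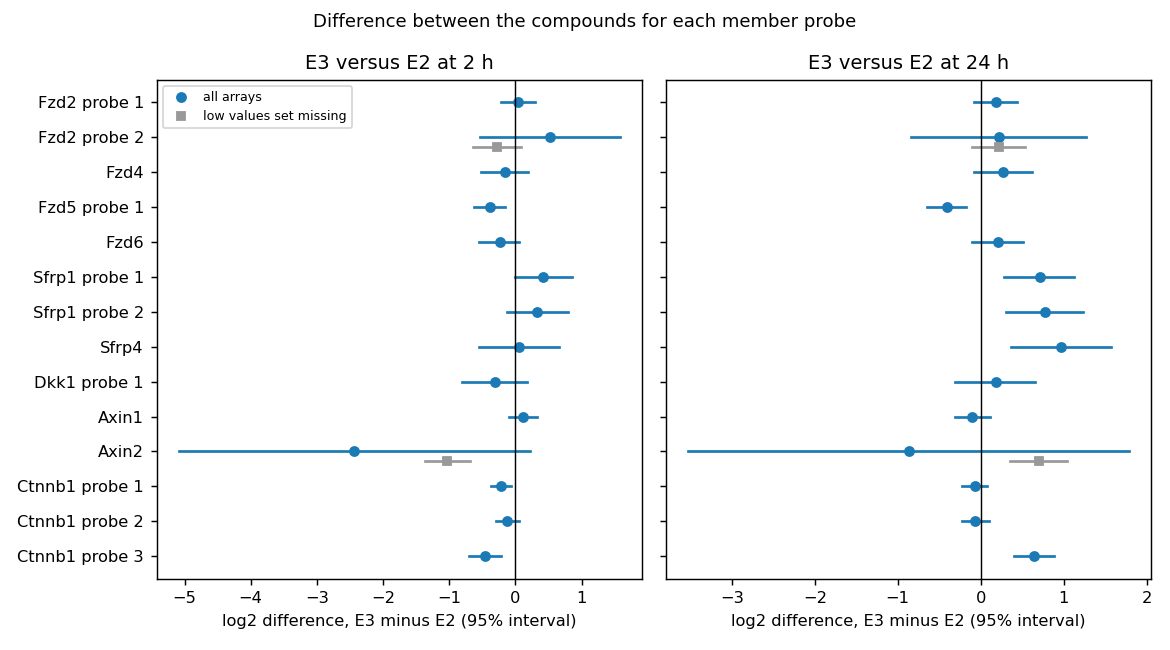
E3 minus E2 difference (log2, points) with its 95% interval (lines) for the 14 tested probes at 2 hr and 24 hr; gray squares show Fzd2 probe 2 and Axin2 with the low values set missing. The intervals of Sfrp1, Sfrp4, Fzd5 probe 1, and Ctnnb1 probe 3 at 24 hr do not include 0.

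Between 2 and 24 hr, 2 of the 14 probes were called with E2 (31.0% of all tested probes) and 1 with E3 (16.1%). Fzd2 probe 1 rose from 2 to 24 hr with either compound, by 1.13 ± 0.12 with E2 (2.19-fold, adjusted p = 3.27e-06) and by 1.28 ± 0.12 with E3 (2.42-fold, adjusted p = 2.95e-06). With E2 Ctnnb1 probe 3 fell by 1.02 ± 0.109 (2.02-fold, adjusted p = 3.55e-06), just past 2-fold, and the difference was -0.98 without E2 replicate 3 of either time and -0.99 with quantile normalization. With E3 its difference was 0.09 (95% interval -0.15 to 0.32). Axin2 with E2 differed by -3.50 ± 1.22 between 2 and 24 hr (11.3-fold lower, adjusted p = 0.0217), which missed the call with all arrays and was called at -3.50 ± 0.138 (adjusted p = 1.06e-08) with the low values set missing. For E3 that alternative gave -1.78 ± 0.17 (3.43-fold, adjusted p = 1.06e-05), also called. Below 2-fold, Fzd4 differed by -0.81 ± 0.163 with E2 (adjusted p = 0.000684), Axin1 by -0.65 ± 0.0961 with E3 (adjusted p = 0.000102), and Sfrp4 by 0.92 ± 0.278 with E3 (adjusted p = 0.0133).

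The test of the time by compound interaction (the E3 minus E2 difference at 24 hr minus that at 2 hr) called 1 of the 14 probes, against 15.5% of all tested probes. This was Ctnnb1 probe 3, at 1.10 ± 0.154 (adjusted p = 0.000153), which rests on the E2 arrays at 2 hr. With the low values set missing Axin2 was called as well, at 1.73 ± 0.219 (adjusted p = 0.000169), from a difference of -1.03 at 2 hr to 0.70 at 24 hr.

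Around these members, 105 other Wnt pathway genes were taken from 6 lists, with the brightest probe standing for each gene, and 98 of them were tested. For E2 at 2 hr 30 were called (11 higher, 19 lower) against 21.2% of all tested probes, and for E3 at 2 hr 28 (11 higher, 17 lower) against 13.8%. For E2 at 24 hr 15 were called (2 higher, 13 lower) against 18.1%, and for E3 at 24 hr 1 (lower) against 3.82%. Between E3 and E2, limma called none of the 98 at 2 hr, where 30 had an adjusted p below 0.05 (40 an unadjusted one) against 43.4% of all tested probes, and 7 were called at 24 hr (6 higher with E3, 1 lower) against 4.85%. The median log2 difference of the 98 genes was -0.27, -0.29, -0.23, and -0.09 against saline, in the same order.

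Among the 14 other receptors, 5 were called with E2 (1 higher, 4 lower) and 6 with E3 (2 higher, 4 lower) at 2 hr, against 21.2% and 13.8% of all tested probes. Fzd1, like Fzd2, was lower at 2 hr (-2.22 ± 0.204 with E2 and -2.82 ± 0.204 with E3), as was Fzd7 (-1.13 ± 0.162 and -2.05 ± 0.162). Lgr5, a receptor of R-spondins, also fell (-2.24 ± 0.238 and -1.80 ± 0.238), whereas its relative Lgr6 rose by 3.49 ± 0.24 with E2 and 2.91 ± 0.24 with E3. Of 20 tested ligands and ligand export genes, 7 were called with E2 and 6 with E3 at 2 hr (21.2% and 13.8% of all tested probes), led by Wnt4 (2.71 ± 0.232 with E2 and 3.1 ± 0.232 with E3), a ligand needed for decidualization.

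Of 14 other secreted modulators, 3 were called with E2 (1 higher, 2 lower) and 2 with E3 (both lower) at 2 hr, against the same shares of all probes. Rspo3, an R-spondin that enhances Wnt signals, fell at 2 hr (-3.60 ± 0.279 with E2 and -3.41 ± 0.279 with E3). Dkk2, a relative of Dkk1, fell as well (-1.54 ± 0.233 and -1.75 ± 0.233). Frzb, a secreted Frizzled-related inhibitor, rose by 1.36 ± 0.17 with E2 and differed by 0.45 ± 0.17 with E3 (adjusted p = 0.0434), which was not called. With E2 at 24 hr 5 of the 14 modulators were called (1 higher, 4 lower) against 18.1% of all probes. Sfrp2, a relative of Sfrp1, fell by 2.00 ± 0.199 with E2 at 24 hr, and the extracellular inhibitor Wif1 fell by 2.09 ± 0.325. Kremen2, a Dkk receptor, rose by 1.92 ± 0.246 with E2 at 24 hr. All these called changes of other pathway genes had an adjusted p of 0.000144 or less.

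Of 17 tested feedback genes and targets, 9 were called at 2 hr with each compound, 3 higher and 6 lower, against 21.2% (E2) and 13.8% (E3) of all tested probes. Fosl1, an AP-1 subunit, rose by 5.01 ± 0.206 with E2 and 4.29 ± 0.206 with E3, and Apcdd1, a Wnt inhibitor, fell (-2.49 ± 0.178 and -2.59 ± 0.178). Of the 17 nuclear effectors, 4 were called with each compound at 2 hr, close to the share of all probes for E2, among them the inhibitor Cxxc4 (-3.31 ± 0.296 and -2.58 ± 0.296) and the corepressor Tle1 (-1.73 ± 0.128 and -1.90 ± 0.128). With E2 at 24 hr 1 of the 17 nuclear effectors was called, against 18.1% of all probes. It was Lef1, which partners beta-catenin and fell by 1.76 ± 0.133. Of 16 cytoplasmic transducers, 2 and 1 were called at 2 hr and none at 24 hr, when 6 (E2) and 2 (E3) had an adjusted p below 0.05, as did 61.3% and 34% of all tested probes.

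At 24 hr 7 of the 98 genes were called between E3 and E2, 6 higher and 1 lower with E3, against 4.85% of all tested probes. Below the call, Sfrp1, Sfrp4, and Ctnnb1 probe 3 were higher with E3 and Fzd5 probe 1 was lower. The 6 higher genes were the ligands Wnt11 (2.27 ± 0.161), Wnt2 (1.76 ± 0.194), and Wnt6 (1.54 ± 0.153), the receptor Fzd7 (1.07 ± 0.162), and the inhibitors Sfrp2 (1.48 ± 0.199) and Dkk2 (1.43 ± 0.233). Kremen2 was lower with E3 (-1.33 ± 0.246). The adjusted p-values ranged from 4.91e-06 (Wnt11) to 0.00138 (Kremen2). Against saline at 24 hr with E2, Wnt11, Wnt2, and Wnt6 were lower (-2.51 ± 0.161, -2.41 ± 0.194, and -2.32 ± 0.153).

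**Figure D5:**
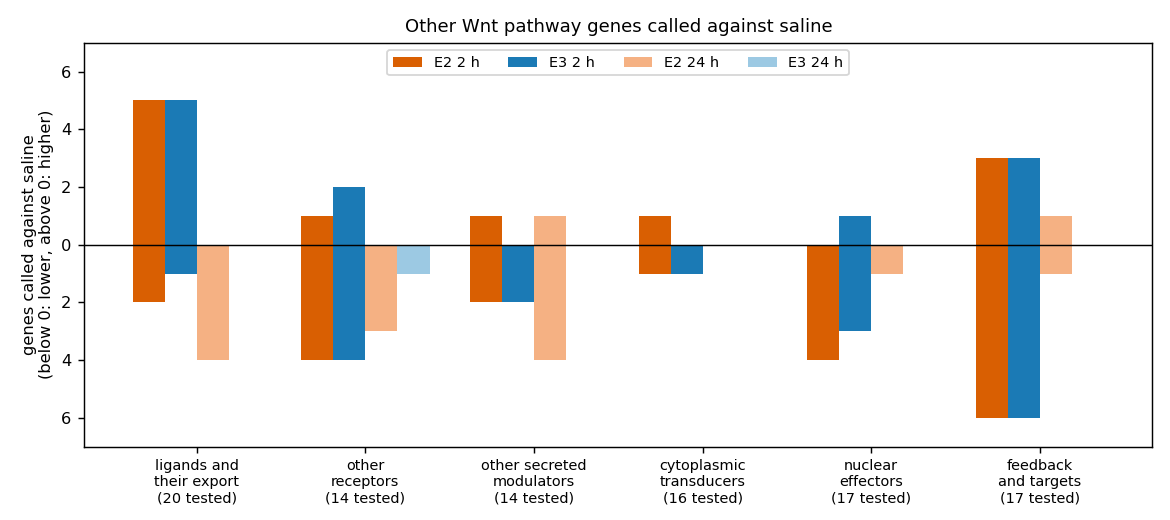
Number of other Wnt pathway genes called higher (above 0) or lower (below 0) than saline in each of 6 lists, with bars for E2 and E3 at 2 hr and at 24 hr. At 24 hr the E2 bars point mainly down and E3 has 1 called gene, a receptor.

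The regulatory sequence before the transcription start was available for 5 of the 10 members (Fzd4, Fzd5, Dkk1, Axin2, and Ctnnb1, the last with 2 starts) from RefSeq on build GRCm38.p6. In the 250 bases upstream of each start, both strands were searched for an estrogen response element (GGTCA and TGACC with 3 bases between), an AP-1 site (TGANTCA), an Sp1 GC box (GGGCGG), and a TCF/LEF core (ATCAAAG). These letters occur in 0.0639%, 6.75%, 32.7%, and 3.21% of the 32851 promoter windows of that table. Only GC boxes were found, with 7 matches for Fzd4, 9 for Fzd5, 2 for Axin2, 3 and 2 for the Ctnnb1 starts, and 0 for Dkk1. Both matches of the second Ctnnb1 start are also in the window of the first, and matches for Fzd4 partly overlap. The window of Axin2, the member with the widest range, is printed with the GC boxes in capitals (plus strand).
Axin2, chr11:108920099-108920348: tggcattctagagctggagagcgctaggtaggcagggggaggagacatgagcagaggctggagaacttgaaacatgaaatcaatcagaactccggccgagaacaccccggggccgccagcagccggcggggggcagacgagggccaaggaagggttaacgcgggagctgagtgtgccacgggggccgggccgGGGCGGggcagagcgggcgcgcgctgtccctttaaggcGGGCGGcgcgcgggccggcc

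Across the 15 arrays, the probes of other genes most like Axin2 were those of Adrbk1 (Pearson r = 0.908), Rbm39 (0.899), and Rpgrip1 (0.851), out of 29060 candidate probes. Without the 2 arrays that held the low Axin2 values the correlations were 0.77, 0.959, and 0.842 over 13 arrays. For Sfrp1 probe 1 the most alike were C330024D12Rik (0.927), A930001N09Rik (0.926), and Syne2 (0.923), and for Dkk1 probe 1, which is near background, Armcx3 (0.887), Rilp (0.884), and Rpo1-3 (0.883). These are descriptions of arrays that share treatments, slides, and scaling.

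Over the whole series, the 75th percentile of the signal ranged from 2991 to 4422 and 77.8% to 81.8% of the probes were well above background on an array. All 7 epithelial, 7 stromal, and 6 smooth muscle markers of the uterus were well above background on every array. The summed linear signal of the epithelial markers was 71.1 to 97.2 with saline, 48.9 to 65.3 and 53.3 to 69.5 with E2 and E3 at 2 hr, and 149 to 159 and 116 to 125 with E2 and E3 at 24 hr. Smooth muscle markers read 256 to 296 with saline, 272 to 300 at 2 hr, and 353 to 445 at 24 hr, and stromal markers 177 to 220, 142 to 191, and 235 to 282. The stromal sum is set by its brightest markers, and the median log2 difference of the 7 stromal markers from saline was -0.20 with E2 and -0.01 with E3 at 24 hr. At 2 hr that median was -1 with E2 and -0.57 with E3. Of the 7 stromal markers, 3 and 2 were called lower at 2 hr, against 21.2% and 13.8% of all tested probes called. The 4 endothelial markers read 6.71 to 6.99 with saline, and 3.91 to 4.47 and 4.95 to 5.21 with E2 and E3 at 24 hr. The 6 liver markers on the array had a summed linear signal of 4.67 to 17.4 with saline, 0.0323 to 0.0419 with E2 at 2 hr, 1.14 to 2.87 with E3 at 2 hr, 0.228 to 0.336 with E2 at 24 hr, and 0.264 to 0.46 with E3 at 24 hr. The liver sum of every treated group lay below that of saline. Each comparison of a member with saline therefore also compares arrays that differ in this sum. The sum of 6 pancreas markers reached 378 on an E3 array at 2 hr and 148 on an E2 array at 24 hr and was at most 0.226 with saline, and that of 5 fat markers ranged from 11.9 to 85.1. The sum of 5 skeletal muscle markers was 3.42 to 3.76 with saline, and 2.26 to 2.82 and 3.69 to 4.18 with E2 and E3 at 2 hr. At 24 hr it was 8.08 to 11 with E2 and 5.34 to 8.18 with E3. The part of all these markers in the results was not tested.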

How the data were processed

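RNA of 15 uterus samples was labeled with Cy3 and read on one-color Agilent arrays. The authors deposited Agilent Feature Extraction 9.5.3.1 files with linear intensity values per spot, background subtracted and not scaled between arrays, and a value table that held the same intensities (largest relative difference 0). Control spots and 1893 spots with an outlier flag were left out. The deposited intensities were divided by their 75th percentile on the same array, put on the log2 scale, and averaged over spots of 1 probe. A probe was tested if 2 or more arrays of any group were well above background for it, which 34776 of 41174 were (34766 for comparisons with E2 at 2 hr). All 9 comparisons came from 1 limma 3.58.1 fit in R 4.3.3 (lmFit and eBayes, a mean per group, residual degrees of freedom 10, prior 2.06). The script was tested on simulated data. Python 3.11.15 with matplotlib 3.10.9 drew the figures. The members, the pathway and marker lists, and the tests were chosen with earlier results of these data known. All member probes are named. Of other pathway genes, up to 3 called genes with the largest change per list and comparison against saline were listed by rule, from which examples are given, with every gene called between E3 and E2 at 24 hr. The genes most like a member are given for the 3 members whose brightest probe had the widest range of group means. The arrays sat on 7 slides, were read on 2 scanners, and no 2 arrays correlated above 0.9951. The deposited files hold no counts, and the number of arrays limits the precision. Alternatives changed the scaling, background correction, probe filter, call rule, blocks, samples in the fit, source table, and each left-out array.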

Additional observations from a re-analysis of the deposited data

Results flagged for a closer look

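For Ctnnb1 probe 3 the E3 minus E2 difference was -0.46 at 2 hr and 0.64 at 24 hr, and the test of the change between the times gave 1.10 ± 0.154 (limma, adjusted p = 0.000153). What this probe reads was not tested. Ctnnb1 probes 1 and 2 gave 0.14 and 0.05 in the same test (adjusted p = 0.283 and 0.715). The value rests on the E2 arrays at 2 hr, so compound and time cannot be told apart from strain label and scanner.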

How the results depend on the processing

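No called member change turned its direction in any of 29 other settings. The calls of Fzd2 probe 1 (E2 and E3 at 2 hr, and 24 hr against 2 hr with each compound), Sfrp1 probe 1 with E2 at 24 hr, and Ctnnb1 probe 3 with E2 at 24 hr held in all settings run. Counts of called probes that moved by over 1.5 times were as follows. With normexp the counts were 1, 1, 2, and 0 for E2 and E3 at 2 hr and E2 and E3 at 24 hr against saline, in place of 3, 2, 4, and 1, and 0 in place of 1 for the interaction. Without scaling they were 1 for E3 at 2 hr and 0 for E3 at 24 hr, with quantile normalization 1 in place of 2 for E2 at 24 hr against 2 hr, and with only the groups compared 0 for E3 at 24 hr. With no minimum change they were 1 in place of 0 for E3 against E2 at 24 hr, 4 in place of 2 for E2 and 2 in place of 1 for E3 between the times. With slide as a fixed block, added after seeing the data, E3 at 2 hr had 1. With the low values set missing, also added afterwards, there were 5 for E2 at 2 hr, 1 for E3 against E2 at 2 hr, 2 for E3 between the times, and 2 for the interaction. Leaving out 1 array at a time gave 2 to 5 for E2 at 2 hr, 1 to 3 for E3 at 2 hr, 3 to 4 for E2 at 24 hr, 0 to 1 for E3 at 24 hr, 0 for both comparisons of E3 with E2, 1 to 2 for E2 and 1 for E3 between the times, and 0 to 1 for the interaction. The Dkk1 calls were lost in 2 of 28 settings for E2 at 2 hr, 7 of 29 for E3 at 2 hr, 13 of 28 for E2 at 24 hr, and 5 of 28 for E3 at 24 hr. Leaving out saline replicate 1 ended the last 3 of these (adjusted p = 0.00434, 0.00767, and 0.00705), and saline replicate 2 ended 2 of them (0.0048 for E3 at 2 hr and 0.00743 for E2 at 24 hr). The Dkk1 call for E3 at 2 hr was also lost without E3 replicate 1 of that time (0.00538) and that for E3 at 24 hr without its replicate 1 (0.0093). The Dkk1 call for E2 at 24 hr was lost without its replicate 1 (0.0093) or 3 (0.00585), without E2 replicate 1 (0.00256) or 2 (0.00276) at 2 hr, and without E3 replicate 3 at 2 hr (0.00271). The Ctnnb1 probe 3 interaction fell just short of 2-fold without E3 replicate 3 at 2 hr (0.99). Sfrp1 probe 2 was called for E2 at 2 hr without E2 replicate 1 (-1.03), and Fzd2 probe 2 without E2 replicate 1 (-2.33) or 3 (-1.05).

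Deviations from the group means correlated at -0.458 to 0.544 between same-numbered arrays (median 0.038), and 9 of 30 pairs exceeded 0.1. Between arrays with different numbers they correlated at -0.507 to 0.621 (median 0.017), and 17 of 60 pairs exceeded 0.1. The replicate numbers were therefore not taken as pairs. With the replicate number as a block, the counts were 3, 2, 3, and 1 against saline, 0 and 0 for E3 against E2, 2 and 1 between the times, and 1 for the interaction. The 1 call lost was that of Dkk1 with E2 at 24 hr. A random slide block (consensus correlation -0.014) changed no count.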
